A study of Bos taurus with 12 samples.

Results

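The genes described here drive the cell division cycle, from the licensing and copying of DNA to the separation of the chromosomes and the splitting of the cell. They were chosen by name: 45 gene names were looked up among the 33714 rows of the mRNA table, and measured values played no part in the rule. Earlier results of these data were known when the names were chosen. A row of their own was found for 44 names, and KIF23 stood only in a row that it shares with the neighbouring gene PAQR5. The cells were intramuscular preadipocytes, the fat precursor cells between muscle fibres, grown from the longissimus dorsi of Qinchuan calves just after birth. RNA was taken before adipogenic induction (0 d) and after 3 d, 6 d and 9 d of it, in 3 libraries per time and 12 altogether. The 0 d cells had grown close to confluence in medium with serum and had not been induced. The 3 d, 6 d and 9 d cells had received dexamethasone, IBMX and insulin in the same medium, and after 2 days the medium held insulin alone. The methods describe the libraries of a day as biological replicates, but no source used here ties them to separate animals, so the p-values measure the spread between these libraries.

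A dividing cell passes through G1 phase, copies its DNA in S phase, prepares in G2 phase and divides in mitosis. E2F transcription factors switch on the genes for DNA synthesis near the end of G1 phase, once cyclin-dependent kinases have phosphorylated the retinoblastoma proteins that hold E2F back. A later set of genes, controlled largely by FOXM1, MYBL2 and the MuvB complex, peaks in G2 phase and mitosis and encodes cyclin B, the mitotic kinases, the kinetochore and the spindle. In cultured mouse preadipocyte lines, hormonal induction at confluence is known for a short return to the cell cycle before the cells leave it and store fat, while precursor cells from other sources can differentiate without it. The mRNA levels below describe whole cultures and do not count dividing cells. In such bulk samples fewer cells of a type and less RNA per cell cannot be told apart.

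Expression was given as FPKM, a fragment count scaled to transcript length and library size, and the depth behind an FPKM value is unknown. All 44 genes had a mean of at least 0.1 FPKM over the 12 libraries and entered the test. Their means ran from 0.19 FPKM for UBE2C to 201 FPKM for BIRC5, with a median of 7.91 FPKM, and 6 genes lay under 1 FPKM (AURKA, CDC6, FOXM1, MAD2L1, NDC80 and UBE2C). Levels of different genes could not be set against each other with confidence: MCM2 to MCM7, which form a ring with a single copy of each subunit, ran from 1.80 FPKM (MCM5) to 68.8 FPKM (MCM6) at 0 d. Each gene is therefore compared with itself between days. Changes are log2 fold changes of FPKM + 0.1 from limma with their standard errors, and the added 0.1 understates the change of the lowest genes. A gene changed when its p-value, adjusted over all 15402 mRNAs tested, was under 0.05, and it was called when it also moved more than 2-fold. The first of these rules was added after the data were seen, because the second leaves few genes.

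The label of the cells was checked against marker genes of 5 cell types. The sums and shares below add FPKM of different genes, so the limit just given applies to them, and they are compared only between days. The preadipocyte and fibroblast markers were present, with all 10 of 10 above 1 FPKM and a summed level of 130805, 127225 and 134308 FPKM at 0 d, 171866, 178498 and 180162 FPKM at 3 d, 148810, 144238 and 145108 FPKM at 6 d and 238953, 225916 and 239527 FPKM at 9 d. COL3A1 made 72.6% of it. By limma 5 of the 10 were called higher at 3 d and 4 lower (COL1A1, COL1A2, ENG and PDGFRB, log2 fold change down to −1.68), beside 8.06% and 15.2% of all mRNAs. At 6 d 4 were called higher and 1 lower, beside 3.39% and 7.97%. At 9 d 8 of the 10 rose and the other 2 did not change, with 3 called higher beside 3.41%. The adipocyte markers with a row of their own, 9 of 11, summed to 141, 135 and 145 FPKM at 0 d and to 790.2, 815 and 817 FPKM at 3 d, then to 269, 293 and 301 FPKM at 6 d and 243, 232 and 266 FPKM at 9 d. Their sum was thus highest at 3 d, and PLIN2, a lipid droplet coat protein, made 85.02% of it. PPARG and PLIN1 stood only in rows shared with neighbouring genes, CEBPA stayed at or below 0.26 FPKM in all 12 libraries, and ADIPOQ at or below 1.64 FPKM.

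Muscle genes were present as well. The skeletal muscle markers with a row of their own, 9 of 12, summed to 828, 869 and 943 FPKM at 0 d, 272, 301 and 297 FPKM at 3 d, 402, 381 and 424 FPKM at 6 d and 329, 294 and 326 FPKM at 9 d. DES made 55.7% of the summed FPKM. MYOD1, the factor that defines myoblasts, stood at 239.8, 260.2 and 303 FPKM at 0 d, 107, 113 and 108 FPKM at 3 d, 51.9, 33.97 and 57.3 FPKM at 6 d and 56.6, 43.2 and 63.8 FPKM at 9 d. Every 0 d library therefore lay above all later ones for MYOD1 and for the muscle sum. Endothelial markers summed to at most 3.87 FPKM in any library, with 1 of 8 above 1 FPKM (VWF) and PECAM1 and KDR near 0. Immune markers summed to 2.03, 1.97 and 1.70 FPKM at 0 d, 207, 117 and 88.9 FPKM at 3 d, 30.2, 28.3 and 14.9 FPKM at 6 d and 6.81, 6.10 and 5.35 FPKM at 9 d. CD163 made 94.3% of the sum, and PTPRC and ITGAM were listed at 0 in all 12 libraries. Muscle, adipocyte and CD163 levels thus differed between the same days as the cell cycle genes below, and their part in those results was not tested.

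Across the 44 genes, most differences between days were smaller than 2-fold, and at 9 d the genes that rose were E2F1 and replication genes. At 3 d vs. 0 d, 17 genes rose and 2 fell, that is 38.6% and 4.55% of the genes, beside 21.7% and 30.5% of all mRNAs. Of these, limma called 3 higher (CDC45, CDC6 and E2F1) and 0 lower, beside 8.06% and 15.2% of all mRNAs, and with an unadjusted p under 0.05 20 genes were higher and 3 lower, beside 24.3% and 32.9%. At 6 d vs. 0 d, 1 gene rose and 3 fell, or 2.27% and 6.82%, beside 10.0% and 24.8% of all mRNAs, and limma called 0 genes higher and 0 lower, beside 3.39% and 7.97%. With an unadjusted p under 0.05, 4 genes were higher and 6 lower at 6 d, beside 12.7% and 30.5%. The day 6 cultures were thus the ones in which fewest of these genes differed from 0 d by the adjusted p.

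At 9 d vs. 0 d, 8 genes rose, 18.2% beside 9.69% of all mRNAs, and 13 fell, 29.5% beside 27.2%, a share near that of all mRNAs. The 8 that rose were CDC6, E2F1, MCM3, MCM4, MCM5, MCM7, PCNA and TYMS, which are E2F1 itself and genes of DNA synthesis, and all 13 that fell belong to mitosis. By limma 2 were called higher (CDC6 and MCM3) beside 3.41%, and 0 lower beside 7.47%, and with an unadjusted p under 0.05 10 were higher and 19 lower, beside 12.1% and 33.2%. Between successive days, 22 genes fell and 1 rose at 6 d vs. 3 d, beside 27.1% and 22.4% of all mRNAs, with 3 called lower (CDC45, CDC6 and E2F1) and 0 called higher beside 9.23% and 9.85%. The unadjusted p was under 0.05 for 23 lower and 1 higher, beside 30.8% and 24.6%. At 9 d vs. 6 d, 9 genes rose and 12 fell, beside 10.0% and 10.7% of all mRNAs, with 3 called higher (CDC6, MCM3 and MCM4) and 0 called lower beside 2.55% and 1.89%. Here the unadjusted p was under 0.05 for 11 higher and 19 lower, beside 14.5% and 17.5%. The 5 comparisons share libraries, so their results are not independent of each other.

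The median log2 fold change of the 44 genes was 0.29 at 3 d vs. 0 d, −0.07 at 6 d vs. 0 d and −0.21 at 9 d vs. 0 d, beside −0.06, −0.15 and −0.19 over all mRNAs. Scaling the libraries by their median ratio raised the median of all mRNAs by 0.08, 0.17 and 0.20 in these comparisons. Relative to it, the median of the 44 genes became 0.37 at 3 d, 0.11 at 6 d and −0.03 at 9 d, so that the sign at 6 d turned. On that scale 22 genes rose and 1 fell at 3 d, beside 24.8% and 27.4% of all mRNAs. At 6 d 6 rose (13.6%) and 0 fell, beside 16.2% and 16.1%, with 0 called by limma either way. At 9 d 11 rose (25.00%) and 6 fell (13.6%), beside 16.3% and 15.0%. Over all mRNAs, those higher made up 28.8% of the mRNAs that changed at 6 d and 26.3% at 9 d as deposited, and 50.1% and 52.0% after this scaling. Of the 13 genes that fell at 9 d, 6 also fell on that scale: ASPM, AURKB, CENPE, ECT2, MKI67 and NDC80. The median of the 11 replication genes at 9 d was 0.62 as deposited and 0.83 on that scale, and that of the 31 mitotic genes was −0.36 and −0.15. Of the 31 mitotic genes, 13 fell at 9 d as deposited (41.9% beside 27.2% of all mRNAs) and 6 after median ratio scaling (19.4% beside 15.0%). With FPKM scaled to an equal sum, 16 of them fell at 9 d (51.6% beside 31.5%), with a median of −0.40. The 6 d median of the 44 genes stayed at −0.06 with that equal sum. The 48 further mitosis genes below had a median of −0.11 at 9 d and 9 that fell (18.8%, under the 27.2% of all mRNAs).

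**Figure D1:**
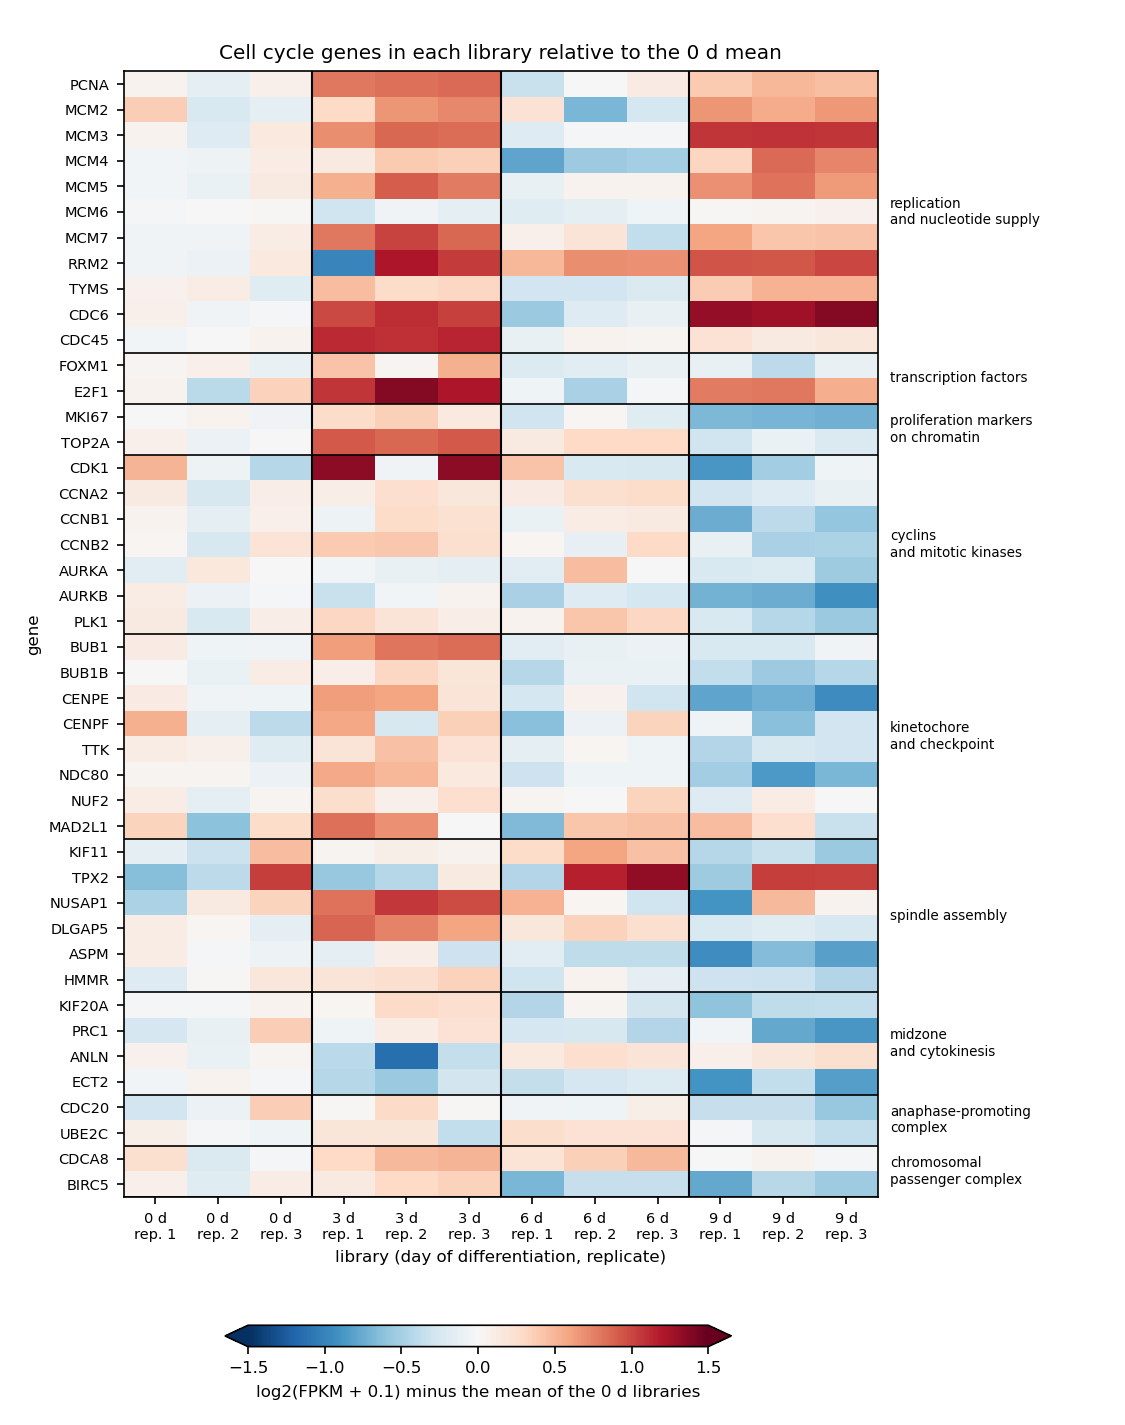
Each row is a cell cycle gene and each column a library, and the colour is log2(FPKM + 0.1) minus the gene's mean at 0 d. Most replication genes are red at 3 d and 9 d and near white or blue at 6 d, with RRM2 (red at 6 d too) and MCM6 (near white or faintly blue) as exceptions. Most mitotic genes are blue at 9 d, and single libraries stand apart for RRM2 (3 d replicate 1) and CDK1 (3 d replicate 2).

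The genes were most often highest at 3 d and lowest at 9 d. By the mean FPKM of the days, 27 of the 44 genes peaked at 3 d, or 61.4% beside 37.1% of all mRNAs, and 29 were lowest at 9 d, or 65.9% beside 29.1%. Of the 11 replication genes, 4 peaked at 3 d and 7 at 9 d, and 9 were lowest at 6 d, beside 37.1%, 12.02% and 22.9% of all mRNAs. Of the 31 mitotic genes, 21 peaked at 3 d and 0 at 9 d, and 28 were lowest at 9 d. The median difference of the replication genes from their 0 d mean was 0.53, 0.86 and 0.84 on the log2 scale in the 3 d libraries, −0.18, −0.03 and −0.06 in those of 6 d and 0.59, 0.55 and 0.64 in those of 9 d. The mitotic genes had medians of 0.19, 0.28 and 0.19 in the 3 d libraries, −0.16, 0.03 and −0.00 in those of 6 d, and −0.35, −0.35 and −0.43 in those of 9 d. Over all mRNAs the medians of the 9 d libraries were −0.17, −0.22 and −0.17, so that the mitotic genes lay below 0 d together with the average mRNA and somewhat further.

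**Figure D2:**
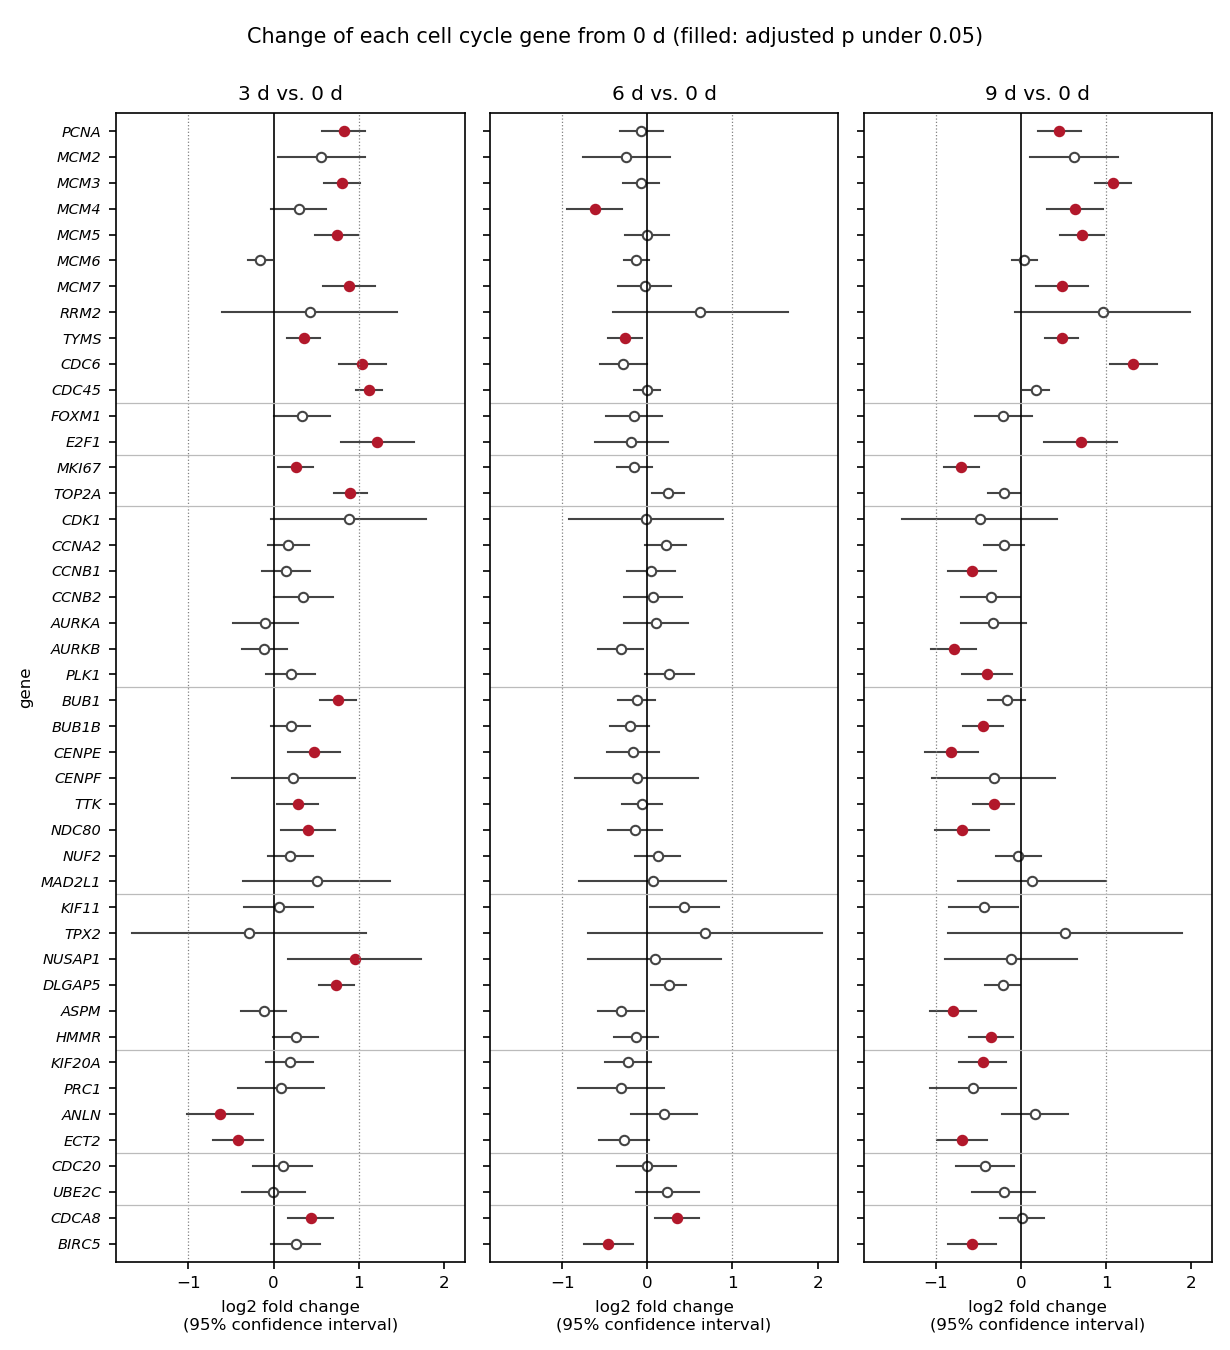
Points give the log2 fold change of each gene from 0 d at 3 d, 6 d and 9 d, with 95% confidence intervals from limma; filled points have an adjusted p under 0.05, dotted lines mark 2-fold, and thin grey lines separate the functional groups. Filled points lie mostly to the right at 3 d, number 4 at 6 d, and at 9 d lie to the right for E2F1 and the replication genes and to the left for the mitotic genes.

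E2F1, the activating transcription factor of the S phase genes, was measured at 22.2, 16.2 and 27.3 FPKM at 0 d, 44.9, 55.7 and 49.6 FPKM at 3 d, 20.5, 15.2 and 21.2 FPKM at 6 d and 36.7, 37.1 and 31.2 FPKM at 9 d. All 3 d libraries lay above all 0 d libraries, the 6 d libraries overlapped with 0 d, and the 9 d libraries lay above both. The log2 fold change was 1.22 ± 0.19 (adjusted p = 0.00038) at 3 d vs. 0 d and 0.70 ± 0.19 (adjusted p = 0.0161) at 9 d vs. 0 d (± SE, 3 libraries per day). E2F1 fell from 3 d to 6 d (log2 fold change −1.40 ± 0.19, adjusted p = 0.00017) and rose again to 9 d (0.89 ± 0.19, adjusted p = 0.00853). For 9 d vs. 0 d, leaving out any 1 of 9 d replicates 1 and 2 brought the adjusted p over the 0.05 limit (up to 0.0538), and log2 fold changes ran from 0.50 to 0.88 over the 12 such fits.

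CDC6, which loads the MCM helicase onto replication origins, stood at 0.49, 0.44 and 0.45 FPKM at 0 d, 1.01, 1.11 and 1.04 FPKM at 3 d, 0.28, 0.39 and 0.42 FPKM at 6 d and 1.29, 1.25 and 1.35 FPKM at 9 d. Its 3 d and 9 d libraries all lay above those of 0 d, and its 6 d libraries all lay below. Its log2 fold change came to 1.04 ± 0.12 (adjusted p = 5.09e-05) at 3 d and 1.32 ± 0.12 (adjusted p = 2.5e-05) at 9 d, and the difference at 6 d did not pass the test (−0.29 ± 0.12, adjusted p = 0.105). These are levels near 1 FPKM, and with 1 in place of 0.1 added to FPKM the log2 fold changes were 0.49 and 0.65 and no longer over 1. CDC45, which joins the loaded helicase to make it active, stood at 4.64, 4.78 and 4.96 FPKM at 0 d, 10.5, 10.3 and 10.7 FPKM at 3 d, 4.42, 4.98 and 4.92 FPKM at 6 d and 5.59, 5.26 and 5.41 FPKM at 9 d. It rose at 3 d (log2 fold change 1.12 ± 0.07, adjusted p = 3.86e-07; 0.99 with 1 added to FPKM), and its 9 d libraries lay just above those of 0 d without passing the test (0.17 ± 0.07, adjusted p = 0.0735), which it did after median ratio scaling (0.38). CDC45 fell from 3 d to 6 d (−1.12 ± 0.07, adjusted p = 5.24e-07; just under 2-fold with 1 added), and the difference from 6 d to 9 d did not pass (0.18 ± 0.07, adjusted p = 0.0946). CDC6 fell to 6 d (−1.33 ± 0.12, adjusted p = 1.16e-05) and rose to 9 d (1.60 ± 0.12, adjusted p = 1.64e-05).

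The subunits of the MCM helicase, which unwinds DNA at the fork, did not move as one. MCM2 stood at 7.04, 4.61 and 4.94 FPKM at 0 d, 6.70, 8.66 and 9.05 FPKM at 3 d, 6.32, 3.33 and 4.51 FPKM at 6 d and 8.69, 8.01 and 8.57 FPKM at 9 d. Its 3 d libraries overlapped with 0 d, its 9 d libraries lay above all 0 d libraries, and neither difference passed the test (log2 fold change 0.56 ± 0.23, adjusted p = 0.0649 at 3 d and 0.62 ± 0.23, adjusted p = 0.0589 at 9 d). After median ratio scaling both passed, at 0.65 and 0.83. The libraries 0 d replicate 1 and 6 d replicate 1 were higher than the others of their day. Without 0 d replicate 1 both differences passed, at 0.75 and 0.81, as they did without 6 d replicate 1 or 6 d replicate 2, and the difference at 3 d also without 3 d replicate 1 (0.69). The 12 such fits gave 0.45 to 0.75 at 3 d and 0.51 to 0.81 at 9 d. MCM3 stood at 9.87, 8.31 and 10.6 FPKM at 0 d, 15.5, 17.4 and 17.2 FPKM at 3 d, 8.36, 9.36 and 9.40 FPKM at 6 d and 20.2, 20.3 and 20.2 FPKM at 9 d. It was higher in every 3 d and every 9 d library than in any 0 d library, and the log2 fold change was 0.80 ± 0.09 (adjusted p = 5.15e-05) at 3 d and 1.08 ± 0.09 (adjusted p = 1.61e-05) at 9 d. Without 0 d replicate 2 the value at 9 d was 0.98, just under 2-fold.

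MCM4 fell at 6 d and rose at 9 d. It stood at 3.20, 3.12 and 3.55 FPKM at 0 d, 3.62, 4.33 and 4.24 FPKM at 3 d, 1.85, 2.22 and 2.27 FPKM at 6 d and 4.12, 6.00 and 5.52 FPKM at 9 d. Its 6 d libraries all lay below those of 0 d (log2 fold change −0.62 ± 0.15, adjusted p = 0.00798) and its 9 d libraries all above them (0.63 ± 0.15, adjusted p = 0.00685), while the difference at 3 d did not pass the test (0.29 ± 0.15, adjusted p = 0.119). The fall at 6 d did not pass after median ratio scaling (log2 fold change −0.45). MCM5, at 1.74, 1.67 and 1.98 FPKM at 0 d, rose to 2.64, 3.44 and 3.15 FPKM at 3 d (log2 fold change 0.74 ± 0.12, adjusted p = 0.00035) and, after 1.65, 1.86 and 1.87 FPKM at 6 d, to 2.94, 3.23 and 2.84 FPKM at 9 d (0.71 ± 0.12, adjusted p = 0.00088). MCM7 rose at 3 d (0.89 ± 0.14, adjusted p = 0.00034) and at 9 d (0.48 ± 0.14, adjusted p = 0.0206), and for the latter leaving out any 1 of 0 d replicates 1 and 2 and 9 d replicate 1 brought the adjusted p over the 0.05 limit (up to 0.0711), and log2 fold changes ran from 0.42 to 0.53 over the 12 such fits. MCM6 remained near its 0 d level, at 67.4, 69.2 and 69.8 FPKM at 0 d, 56.01, 66.4 and 62.6 FPKM at 3 d, 60.7, 62.4 and 65.8 FPKM at 6 d and 69.5, 70.95 and 71.7 FPKM at 9 d. Its log2 fold change was −0.16 at 3 d (95% confidence interval −0.31 to −0.01), −0.13 at 6 d and 0.04 at 9 d. At 3 d the intervals of MCM3 (0.59 to 1.01), MCM5 (0.48 to 1.00) and MCM7 (0.58 to 1.19) lay above that of MCM6. Differences between genes were not tested. After median ratio scaling MCM6 passed at 9 d as a rise (0.25), and without 3 d replicate 2 at 3 d as a fall (−0.22, in a range of −0.22 to −0.09 over the 12 such fits).

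PCNA, the sliding clamp that holds DNA polymerases on the template, stood at 5.94, 5.17 and 6.04 FPKM at 0 d, 9.93, 10.2 and 10.4 FPKM at 3 d, 4.51, 5.73 and 6.20 FPKM at 6 d and 7.54, 8.11 and 7.82 FPKM at 9 d. Every 3 d library and every 9 d library was above every 0 d library, and the 6 d libraries overlapped with 0 d. The log2 fold change was 0.82 ± 0.11 (adjusted p = 0.00015) at 3 d, −0.07 at 6 d and 0.45 ± 0.11 (adjusted p = 0.011) at 9 d. TYMS, which makes the thymidylate for DNA, stood at 34.6, 35.6 and 29.03 FPKM at 0 d, 45.4, 40.01 and 40.9 FPKM at 3 d, 27.1, 26.9 and 28.4 FPKM at 6 d and 42.9, 47.5 and 47.2 FPKM at 9 d. It rose at both days, with log2 fold changes of 0.35 ± 0.09 (adjusted p = 0.00658) at 3 d and 0.47 ± 0.09 (adjusted p = 0.00193) at 9 d. Its fall at 6 d (−0.26 ± 0.09, adjusted p = 0.041) did not pass after median ratio scaling (log2 fold change −0.08), nor when any 1 of 8 libraries was left out. These were 0 d replicates 1 and 2, 3 d replicate 3, 6 d replicates 1, 2 and 3 and 9 d replicates 2 and 3, with adjusted p up to 0.136. The fall of TYMS at 6 d was also lost with the replicate number as a block and with only the 6 libraries compared. It was lost as well with no filter and with FPKM scaled to an equal sum.

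RRM2, the regulated subunit of ribonucleotide reductase, stood at 6.29, 6.14 and 7.27 FPKM at 0 d, 3.26, 15.3 and 13.6 FPKM at 3 d, 9.27, 10.7 and 10.6 FPKM at 6 d and 12.7, 12.6 and 13.2 FPKM at 9 d. The first 3 d library was below all 0 d libraries and the other two lay above them, while all 6 d and 9 d libraries lay above 0 d. With all libraries the log2 fold changes did not pass the test (0.42 ± 0.46, adjusted p = 0.475 at 3 d, 0.62 ± 0.46, adjusted p = 0.344 at 6 d and 0.96 ± 0.46, adjusted p = 0.134 at 9 d). Without 3 d replicate 1 they did, at 1.13, 0.62 and 0.96. Over all 12 fits with 1 library left out, the value at 3 d ran from 0.03 to 1.13. The first 3 d library also had the lowest replication median of its day, at 0.53 beside 0.86 and 0.84.

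**Figure D3:**
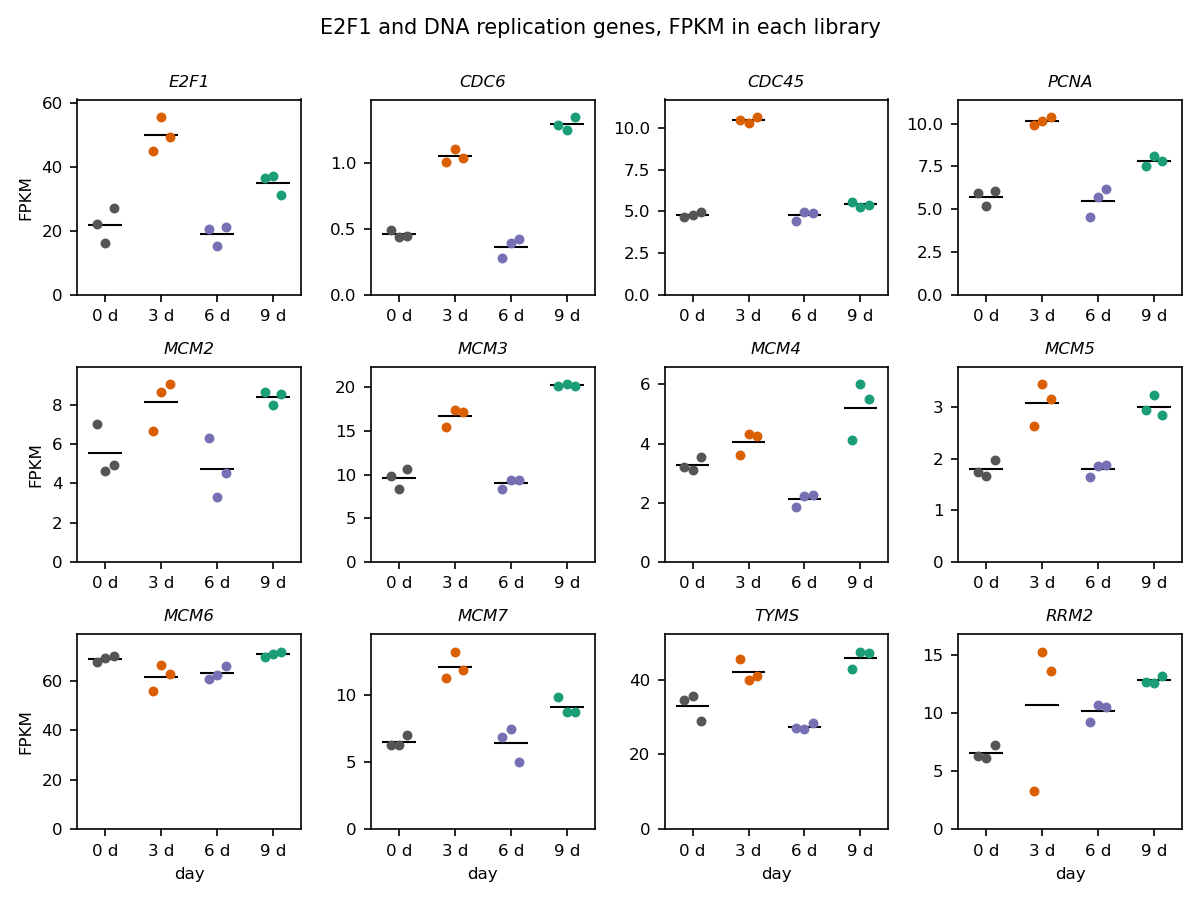
Points are the FPKM of each library and lines the mean of the 3 libraries of a day, with the axis of each panel starting at 0. E2F1, CDC6, PCNA, MCM3, MCM5 and MCM7 have all 3 d and all 9 d points above the 0 d points, CDC45 is high at 3 d, MCM6 is level, and RRM2 has 1 low point at 3 d.

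FOXM1, the transcription factor of the G2 phase and mitosis genes, was low, at 0.29, 0.30 and 0.25 FPKM at 0 d, 0.41, 0.29 and 0.45 FPKM at 3 d, 0.23, 0.24 and 0.25 FPKM at 6 d and 0.25, 0.19 and 0.25 FPKM at 9 d. The libraries of 0 d overlapped with those of every later day, and no comparison with 0 d passed the test (log2 fold change 0.33 ± 0.15, adjusted p = 0.0849 at 3 d and −0.21 ± 0.15, adjusted p = 0.314 at 9 d). Without 3 d replicate 2, the lowest of its day, FOXM1 passed as a rise at 3 d (0.48), as it did after median ratio scaling (0.40). The 12 fits with 1 library left out gave 0.23 to 0.48 at 3 d. It fell from 3 d to 6 d (−0.49 ± 0.15, adjusted p = 0.0191), and leaving out any 1 of 3 d replicates 1 and 3 and 6 d replicate 1 brought the adjusted p over the 0.05 limit (up to 0.0732), and log2 fold changes ran from −0.64 to −0.39 over the 12 such fits. With 1 added to FPKM in place of 0.1 this fall shrank to −0.16.

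MKI67, whose protein coats mitotic chromosomes and is the usual marker of proliferating cells, stood at 11.7, 12.2 and 11.3 FPKM at 0 d, 14.1, 15.1 and 12.98 FPKM at 3 d, 9.51, 11.9 and 10.3 FPKM at 6 d and 7.30, 7.17 and 7.05 FPKM at 9 d. The 3 d libraries lay just above and the 9 d libraries well below those of 0 d, and the 6 d libraries overlapped with 0 d. On the log2 scale it differed from 0 d by 0.26 ± 0.09 (adjusted p = 0.0347) at 3 d, −0.15 at 6 d and −0.70 ± 0.09 (adjusted p = 0.00022) at 9 d. For 3 d, leaving out any 1 of 0 d replicates 1 and 3 and 3 d replicates 1 and 2 brought the adjusted p over the 0.05 limit (up to 0.115), and log2 fold changes ran from 0.21 to 0.32 over the 12 such fits. The fall at 9 d passed in each fit with 1 library left out and after median ratio scaling (log2 fold change −0.49). TOP2A, the topoisomerase that untangles replicated DNA, stood at 2.75, 2.45 and 2.61 FPKM at 0 d, 5.01, 4.82 and 5.01 FPKM at 3 d, 2.86, 3.21 and 3.21 FPKM at 6 d and 2.09, 2.43 and 2.23 FPKM at 9 d. It rose at 3 d in every library (log2 fold change 0.90 ± 0.09, adjusted p = 9.67e-06) and at 9 d did not differ from 0 d by the test (−0.20 ± 0.09, adjusted p = 0.0913), although its 9 d libraries all lay below those of 0 d. At 6 d it passed after median ratio scaling (0.41) or without 6 d replicate 1 (0.29; range 0.20 to 0.29).

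CDK1, the kinase that starts mitosis, varied widely between libraries of a day, at 23.6, 15.6 and 12.2 FPKM at 0 d, 42.2, 15.96 and 41.97 FPKM at 3 d, 22.3, 14.1 and 13.99 FPKM at 6 d and 8.95, 11.4 and 15.8 FPKM at 9 d. The second 3 d library lay within the range of 0 d, and the other two lay above every 0 d library. No comparison passed the test with all libraries (log2 fold change 0.88 ± 0.41, adjusted p = 0.0962 at 3 d and −0.49 ± 0.41, adjusted p = 0.39 at 9 d). Without 3 d replicate 2 CDK1 passed as a rise at 3 d, with a log2 fold change of 1.34 in a range of 0.65 to 1.34 over the 12 such fits. At 9 d vs. 0 d such fits gave −0.70 to −0.23. CCNB1, the cyclin that activates CDK1, stood at 9.79, 8.63 and 10.01 FPKM at 0 d, 8.98, 11.5 and 11.1 FPKM at 3 d, 8.80, 10.2 and 10.4 FPKM at 6 d and 5.61, 7.16 and 6.28 FPKM at 9 d. All 9 d libraries lay below all 0 d libraries, and those of 3 d and 6 d overlapped with 0 d. CCNB1 fell at 9 d (log2 fold change −0.57 ± 0.13, adjusted p = 0.00509), but not by the test after median ratio scaling (−0.36).

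Of the other cyclins, CCNA2, which acts in S and G2 phase, and CCNB2 did not pass in any comparison with 0 d. Their log2 fold changes at 9 d were −0.20 ± 0.11 (adjusted p = 0.18) for CCNA2 and −0.36 ± 0.15 (adjusted p = 0.0995) for CCNB2. Without 0 d replicate 2 both passed at 9 d (−0.32 and −0.48), and so did CCNB2 without 9 d replicate 1 (−0.48). CCNB2 also passed as a rise at 3 d without 0 d replicate 3 (0.45) and after median ratio scaling (0.43), and CCNA2 after that scaling at 6 d (0.39). With 1 library left out, CCNA2 ran from −0.32 to −0.13 at 9 d, and CCNB2 from 0.23 to 0.45 at 3 d and from −0.48 to −0.25 at 9 d. CCNA2 fell from 6 d to 9 d (−0.42 ± 0.11, adjusted p = 0.0208), and leaving out any 1 of 6 d replicates 2 and 3 and 9 d replicates 1 and 2 brought the adjusted p over the 0.05 limit (up to 0.0737), and log2 fold changes ran from −0.46 to −0.37 over the 12 such fits. AURKB, the kinase of the chromosomal passenger complex, stood at 38.99, 34.1 and 35.5 FPKM at 0 d, 28.6, 35.2 and 37.4 FPKM at 3 d, 25.8, 31.7 and 30.1 FPKM at 6 d and 22.1, 21.6 and 19.1 FPKM at 9 d. Its 9 d libraries all lay below those of 0 d, its 6 d libraries lay below too without passing the test (−0.31 ± 0.12, adjusted p = 0.0657), and its 3 d libraries overlapped with 0 d. Without 3 d replicate 1 the difference at 6 d passed at −0.31 (range −0.37 to −0.23). AURKB fell at 9 d by 0.79 on the log2 scale (SE 0.12, adjusted p = 0.00053), and after median ratio scaling by 0.58.

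PLK1, a kinase of centrosome maturation and mitotic entry, stood at 68.8, 53.2 and 66.8 FPKM at 0 d, 77.4, 71.6 and 66.8 FPKM at 3 d, 65.1, 83.2 and 77.6 FPKM at 6 d and 53.5, 46.5 and 42.4 FPKM at 9 d. Its 9 d libraries overlapped with 0 d but lay below all 6 d libraries. PLK1 fell at 9 d vs. 0 d (log2 fold change −0.40 ± 0.13, adjusted p = 0.0352) and at 9 d vs. 6 d (−0.66 ± 0.13, adjusted p = 0.00537). For 9 d vs. 0 d, leaving out any 1 of 0 d replicates 1 and 3 and 9 d replicates 2 and 3 brought the adjusted p over the 0.05 limit (up to 0.117), and log2 fold changes ran from −0.52 to −0.32 over the 12 such fits, and the fall did not pass after median ratio scaling (−0.19). On that scale PLK1 rose at 6 d (0.44). The fall at 9 d vs. 0 d was also lost with the replicate number as a block and with only the 6 libraries compared. AURKA, the centrosomal kinase, was found at 0.37 to 0.84 FPKM over the 12 libraries and passed in no comparison. Of these 7 cyclins and mitotic kinases, 3 thus fell at 9 d (AURKB, CCNB1 and PLK1), beside 27.2% of all mRNAs, and after median ratio scaling only AURKB did.

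**Figure D4:**
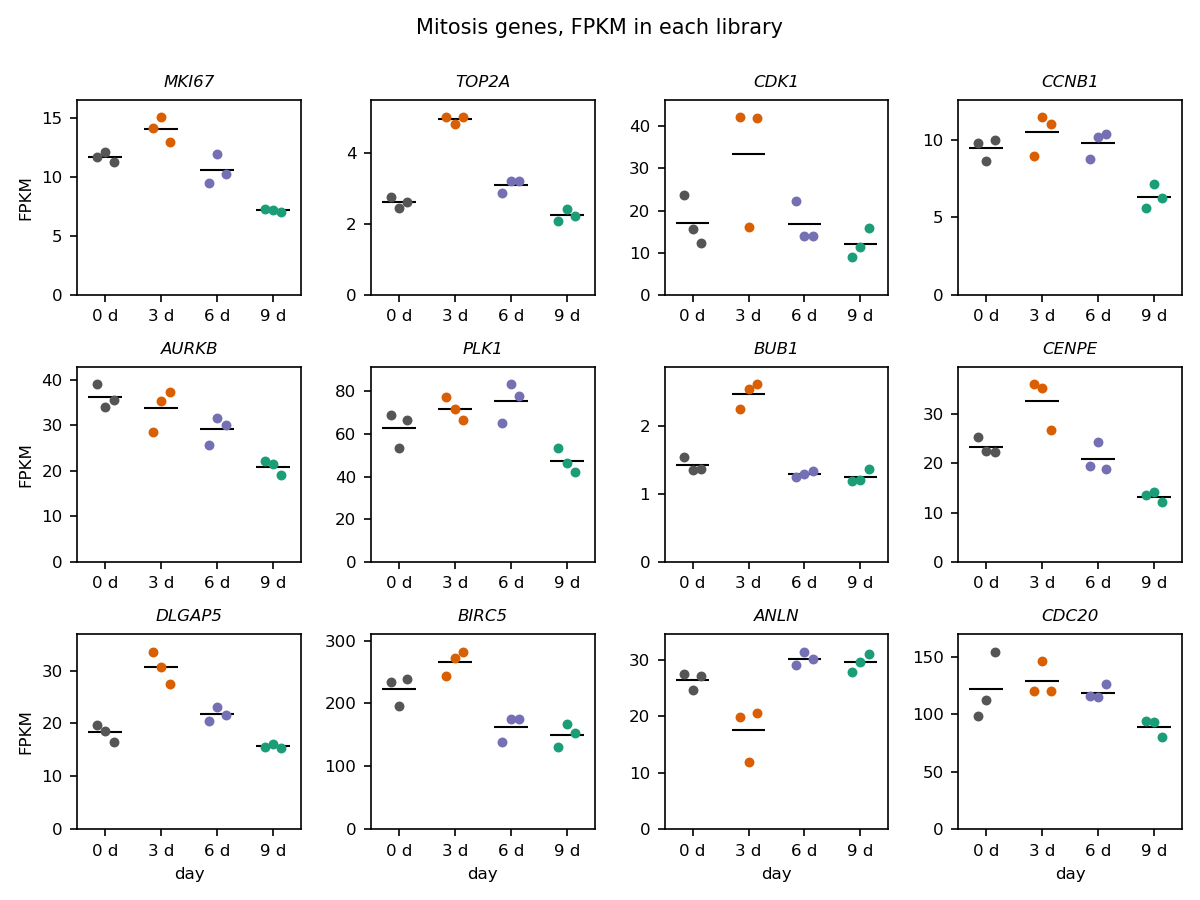
Points are the FPKM of each library and lines the mean of the 3 libraries of a day, with the axis of each panel starting at 0. MKI67, CCNB1, AURKB, CENPE and BIRC5 have all 9 d points below the 0 d points, TOP2A, BUB1 and DLGAP5 stand highest at 3 d, ANLN stands lowest at 3 d, and CDK1 is scattered.

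The kinetochore and checkpoint group holds 8 genes, of which 4 rose at 3 d (BUB1, CENPE, NDC80 and TTK) and 4 fell at 9 d (BUB1B, CENPE, NDC80 and TTK), beside 21.7% of all mRNAs that rose at 3 d and 27.2% that fell at 9 d. The falls of BUB1B and TTK did not pass after median ratio scaling (−0.23 and −0.11), while BUB1B then rose at 3 d (0.29). BUB1, a checkpoint kinase at the kinetochore, stood at 1.55, 1.35 and 1.36 FPKM at 0 d, 2.25, 2.55 and 2.61 FPKM at 3 d, 1.25, 1.3 and 1.33 FPKM at 6 d and 1.19, 1.2 and 1.36 FPKM at 9 d. It was raised in all 3 d libraries (log2 fold change 0.76 ± 0.10, adjusted p = 8.53e-05), and by 6 d it had fallen (−0.88 ± 0.10, adjusted p = 3.64e-05) to a level that did not differ from 0 d by the test. CENPE, the kinesin that brings chromosomes to the spindle equator, stood at 25.3, 22.5 and 22.2 FPKM at 0 d, 35.95, 35.3 and 26.6 FPKM at 3 d, 19.4, 24.4 and 18.8 FPKM at 6 d and 13.4, 14.1 and 12.04 FPKM at 9 d. All its 3 d libraries lay above and all its 9 d libraries below those of 0 d. The log2 fold change was 0.47 ± 0.14 (adjusted p = 0.0152) at 3 d and −0.82 ± 0.14 (adjusted p = 0.00111) at 9 d. For 3 d, leaving out any 1 of 3 d replicates 1 and 2 brought the adjusted p over the 0.05 limit (up to 0.0571), and log2 fold changes ran from 0.39 to 0.61 over the 12 such fits.

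NDC80, which binds microtubules at the kinetochore, was low and moved in the same order, with 0.91, 0.91 and 0.82 FPKM at 0 d, 1.35, 1.28 and 0.98 FPKM at 3 d and 0.58, 0.44 and 0.51 FPKM at 9 d. Its log2 fold change was 0.40 ± 0.14 (adjusted p = 0.0369) at 3 d and −0.69 ± 0.14 (adjusted p = 0.0037) at 9 d. With 1 added to FPKM in place of 0.1 these changes shrank to 0.23 and −0.32. For 3 d, leaving out any 1 of 0 d replicates 1, 2 and 3, 3 d replicates 1 and 2 and 9 d replicate 3 brought the adjusted p over the 0.05 limit (up to 0.121), and log2 fold changes ran from 0.32 to 0.53 over the 12 such fits. The rise of NDC80 at 3 d was also lost with the replicate number as a block, with no filter and with only the 6 libraries compared. NUF2, its partner in the same complex, passed in no comparison, with 0.20 at 3 d and −0.03 at 9 d (95% confidence interval −0.29 to 0.23). BUB1B, the checkpoint protein also called BUBR1, fell at 9 d (log2 fold change −0.44 ± 0.10, adjusted p = 0.00748), and its 9 d libraries at 23.3, 20.6 and 22.3 FPKM all lay below those of 0 d at 29.8, 28.1 and 32.4 FPKM. TTK, the kinase also called MPS1, changed little in size, with 0.28 ± 0.11 (adjusted p = 0.0482) at 3 d and −0.32 ± 0.11 (adjusted p = 0.0384) at 9 d. For 3 d, leaving out any 1 of 0 d replicates 2 and 3, 3 d replicates 1, 2 and 3, 6 d replicates 1, 2 and 3 and 9 d replicates 2 and 3 brought the adjusted p over the 0.05 limit (up to 0.167), and log2 fold changes ran from 0.19 to 0.34 over the 12 such fits. For 9 d, leaving out any 1 of 0 d replicates 1 and 2, 6 d replicate 3 and 9 d replicates 1, 2 and 3 brought the adjusted p over the 0.05 limit (up to 0.127), and log2 fold changes ran from −0.42 to −0.26 over the 12 such fits. CENPF and the checkpoint gene MAD2L1 passed in no comparison, with wide intervals at 9 d of −1.04 to 0.40 and −0.74 to 0.99.

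The chromosomal passenger complex, which corrects faulty attachments of chromosomes to the spindle, has BIRC5 and CDCA8 as subunits beside AURKB. BIRC5, the subunit called survivin, stood at 234, 196 and 239 FPKM at 0 d, 243, 273 and 282 FPKM at 3 d, 138, 175 and 175 FPKM at 6 d and 130.2, 167 and 153 FPKM at 9 d. Its 6 d and 9 d libraries all lay below those of 0 d. BIRC5 fell at 6 d (log2 fold change −0.46 ± 0.13, adjusted p = 0.0184) and at 9 d (−0.57 ± 0.13, adjusted p = 0.00552), and neither fall passed after median ratio scaling (−0.28 and −0.36). For 6 d, leaving out any 1 of 0 d replicates 1 and 3 and 6 d replicate 1 brought the adjusted p over the 0.05 limit (up to 0.0648), and log2 fold changes ran from −0.55 to −0.34 over the 12 such fits. CDCA8, the subunit called borealin, rose at 3 d (log2 fold change 0.43 ± 0.12, adjusted p = 0.0104) and at 6 d (0.35 ± 0.12, adjusted p = 0.0422) and stood at the 0 d level at 9 d (0.01). For 6 d, leaving out any 1 of 0 d replicates 2 and 3, 3 d replicates 2 and 3, 6 d replicates 2 and 3 and 9 d replicates 1, 2 and 3 brought the adjusted p over the 0.05 limit (up to 0.141), and log2 fold changes ran from 0.24 to 0.47 over the 12 such fits. The rise of CDCA8 at 6 d was also lost with the replicate number as a block, with no filter and with only the 6 libraries compared.

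Among the 6 spindle assembly genes, 2 rose at 3 d and 2 fell at 9 d, beside 21.7% and 27.2% of all mRNAs. DLGAP5, which stabilises the microtubules at kinetochores, stood at 19.7, 18.6 and 16.6 FPKM at 0 d, 33.6, 30.8 and 27.5 FPKM at 3 d, 20.5, 23.2 and 21.6 FPKM at 6 d and 15.6, 16.1 and 15.4 FPKM at 9 d. It rose in every 3 d library (log2 fold change 0.74 ± 0.09, adjusted p = 6.73e-05) and fell in the steps to 6 d (−0.49 ± 0.09, adjusted p = 0.00134) and to 9 d (−0.47 ± 0.09, adjusted p = 0.00502). After median ratio scaling it was also above 0 d at 6 d (0.43). It passed there too without 0 d replicate 1 (0.30), 3 d replicate 1 or 3 d replicate 3 (0.25 in both; range 0.18 to 0.30). Without 0 d replicate 3 it passed as a fall at 9 d vs. 0 d (−0.29; range −0.29 to −0.16). NUSAP1, which bundles spindle microtubules, rose at 3 d (0.95 ± 0.35, adjusted p = 0.0422) from 3.52, 5.44 and 6.25 FPKM to 8.77, 10.4 and 9.79 FPKM. For this rise, leaving out any 1 of 0 d replicates 1 and 2, 3 d replicates 1, 2 and 3, 6 d replicate 2 and 9 d replicate 3 brought the adjusted p over the 0.05 limit (up to 0.146), and log2 fold changes ran from 0.71 to 1.12 over the 12 such fits. It passed 2-fold after median ratio scaling (1.04). ASPM, which gathers microtubules at the spindle poles, stood at 13.3, 12.02 and 11.7 FPKM at 0 d, 11.2, 13.2 and 9.92 FPKM at 3 d, 11, 9.44 and 9.42 FPKM at 6 d and 6.42, 7.81 and 6.98 FPKM at 9 d. Its 9 d libraries all lay below the others, and it fell at 9 d (log2 fold change −0.80 ± 0.12, adjusted p = 0.00056; −0.58 after median ratio scaling).

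HMMR, a hyaluronan receptor that also binds the spindle, fell at 9 d (−0.36 ± 0.12, adjusted p = 0.037), and leaving out any 1 of 0 d replicates 2 and 3, 6 d replicate 3 and 9 d replicates 1, 2 and 3 brought the adjusted p over the 0.05 limit (up to 0.12), and log2 fold changes ran from −0.45 to −0.27 over the 12 such fits. After median ratio scaling that fall did not pass (−0.15) and HMMR rose at 3 d (0.34). KIF11, the kinesin that pushes the spindle poles apart, passed in no comparison with 0 d (log2 fold change 0.44 ± 0.18, adjusted p = 0.0931 at 6 d and −0.44 ± 0.18, adjusted p = 0.0864 at 9 d). It passed at 6 d after median ratio scaling (0.60) and without 0 d replicate 3 (0.66), and without 0 d replicate 2 at 9 d (−0.60). With 1 library left out, its values ran from 0.28 to 0.66 at 6 d and from −0.60 to −0.21 at 9 d. It fell from 6 d to 9 d (log2 fold change −0.88 ± 0.18, adjusted p = 0.00696), from 1.38, 1.74 and 1.56 FPKM to 0.81, 0.87 and 0.73 FPKM. With 1 added to FPKM in place of 0.1 this fall shrank to −0.50. TPX2, an activator of AURKA, was too scattered to compare, with 0.65, 0.79 and 2.30 FPKM at 0 d, 0.69, 0.77 and 1.18 FPKM at 3 d, 0.76, 2.52 and 2.83 FPKM at 6 d and 0.71, 2.31 and 2.28 FPKM at 9 d. The libraries of each day overlapped with those of every other day.

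The genes of the spindle midzone and of cytokinesis, the final splitting of the cell, included the 2 that fell at 3 d. ANLN, a scaffold of the contractile ring, stood at 27.5, 24.6 and 27.1 FPKM at 0 d, 19.9, 11.96 and 20.6 FPKM at 3 d, 29.1, 31.4 and 30.04 FPKM at 6 d and 27.9, 29.6 and 31.1 FPKM at 9 d. All 3 d libraries lay below every library of the other days, with the second the lowest. ANLN fell at 3 d (log2 fold change −0.63 ± 0.17, adjusted p = 0.0115) and rose again by 6 d (0.83 ± 0.17, adjusted p = 0.00282). At 3 d it passed in all 12 fits with 1 library left out, at −0.77 to −0.38, but not with only the 6 libraries compared, and the adjusted p ran from 0.0028 to 0.0625 over the 22 alternatives. ECT2, which activates RhoA at the division plane, stood at 17.8, 18.97 and 17.9 FPKM at 0 d, 13.6, 12.4 and 15.01 FPKM at 3 d, 14.2, 15.3 and 15.8 FPKM at 6 d and 9.73, 14.1 and 10.2 FPKM at 9 d. All libraries of the later days lay below those of 0 d, and ECT2 fell at 3 d (log2 fold change −0.42 ± 0.13, adjusted p = 0.0218) and at 9 d (−0.70 ± 0.13, adjusted p = 0.00219). For 3 d, leaving out any 1 of 0 d replicate 2 and 3 d replicates 1 and 2 brought the adjusted p over the 0.05 limit (up to 0.0764), and log2 fold changes ran from −0.49 to −0.35 over the 12 such fits, and the fall at 3 d did not pass after median ratio scaling (−0.33).

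KIF20A, a kinesin of the midzone, fell at 9 d (−0.45 ± 0.12, adjusted p = 0.0161) and not after median ratio scaling (−0.24). For this fall, leaving out 9 d replicate 1 brought the adjusted p over the 0.05 limit (at 0.0621), and log2 fold changes ran from −0.49 to −0.38 over the 12 such fits. PRC1, which crosslinks midzone microtubules, passed in no comparison (log2 fold change −0.56 ± 0.23, adjusted p = 0.0787 at 9 d). Without 9 d replicate 1, whose value of 1.85 FPKM stood beside 1.08 and 1.00 FPKM, PRC1 passed as a fall (−0.82), and the 12 such fits gave −0.82 to −0.38. The row shared by KIF23, PRC1's partner in the midzone, and PAQR5 stood at 7.08, 5.97 and 7.28 FPKM at 0 d, 7.82, 9.10 and 9.31 FPKM at 3 d, 6.01, 6.92 and 7.56 FPKM at 6 d and 4.51, 5.53 and 4.83 FPKM at 9 d. Since the 2 genes cannot be separated in that row, it enters no count here.

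CDC20, the activator of the anaphase-promoting complex that starts chromosome separation, stood at 98.3, 113 and 155 FPKM at 0 d, 121, 146 and 121 FPKM at 3 d, 116, 115 and 127 FPKM at 6 d and 93.9, 93.8 and 80.3 FPKM at 9 d. Its 9 d libraries all lay below those of 0 d, but the 0 d libraries spread widely and the difference did not pass the test (log2 fold change −0.42 ± 0.15, adjusted p = 0.0542). Without 0 d replicate 1 it passed, at −0.57, and over the 12 such fits the value ran from −0.57 to −0.24. UBE2C, the ubiquitin-conjugating enzyme of the same complex, lay at 0.12 to 0.24 FPKM in the 12 libraries and passed in no comparison. In all, 12 of the 44 genes passed in none of the 5 comparisons as deposited: AURKA, CCNB2, CDC20, CDK1, CENPF, MAD2L1, MCM6, NUF2, PRC1, RRM2, TPX2 and UBE2C. Of these 12, 7 passed somewhere when 1 library was left out: CCNB2, CDC20, CDK1, MCM6, PRC1 and RRM2 against 0 d, as given above, and UBE2C at 9 d vs. 6 d without 3 d replicate 3 (−0.44). CCNB2, CDC20, CDK1, MCM6 and RRM2 also passed between later days in such fits. After median ratio scaling, CCNB2 and MCM6 passed. Over all alternatives tried, PRC1 and TPX2 kept their result at 6 d vs. 3 d in 21 of 22. Their lowest adjusted p there was 0.0396 for PRC1 and 0.0485 for TPX2. A further 4, CCNA2, FOXM1, KIF11 and MCM2, passed only between later days as deposited.

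Passage through G1 phase is set by D and E type cyclins, which activate the kinases, and by inhibitors of those kinases, and 11 and 7 such genes were read beside the list. CCND1, the cyclin D1 gene, moved far more at 3 d vs. 0 d than any of the 44 genes. At 9 d vs. 0 d, CDC6 moved further (log2 fold change 1.32). CCND1 stood at 85.7, 79.2 and 87.5 FPKM at 0 d, 3.94, 4.42 and 3.73 FPKM at 3 d, 47.8, 50.1 and 51.2 FPKM at 6 d and 197, 184 and 183 FPKM at 9 d. No libraries of different days overlapped, and the 3 d level stood far below the rest. By limma it differed from 0 d by a log2 fold change of −4.35 ± 0.07 (adjusted p = 7.72e-11) at 3 d, −0.76 ± 0.07 (adjusted p = 2.49e-05) at 6 d and 1.16 ± 0.07 (adjusted p = 1.57e-06) at 9 d. CCND1 was thus lowest at 3 d and highest at 9 d, both days on which E2F1 was higher than at 0 d.

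The other D and E cyclins differed from 0 d by less than 2-fold. CCND2 rose at 6 d from 5.40, 5.60 and 5.59 FPKM to 6.88, 7.77 and 7.27 FPKM (log2 fold change 0.39 ± 0.08, adjusted p = 0.00413), and after median ratio scaling also at 9 d (0.35). CCND3 rose at 3 d from 3.57, 3.61 and 3.89 FPKM to 5.78, 6.90 and 6.79 FPKM (0.79 ± 0.09, adjusted p = 2.93e-05) and was above all 0 d libraries in each later one. CCNE1, at 28.5, 29.3 and 27.9 FPKM at 0 d and 32.8, 35.02 and 30.01 FPKM at 9 d, passed in no comparison, but after median ratio scaling it rose at 3 d, 6 d and 9 d (0.25, 0.36 and 0.40). It also passed at 3 d without 3 d replicate 1 (0.22) and at 9 d without 9 d replicate 3 (0.25). CCNE2 passed in no comparison with all libraries (0.65 ± 0.41, adjusted p = 0.219 at 3 d). At 6 d vs. 3 d CCNE2 passed as a fall without 3 d replicate 3 (−1.24) or 6 d replicate 3 (−1.25). CDK2, the partner of cyclin E, rose at 3 d (1.08 ± 0.11, adjusted p = 1.51e-05), at 6 d (0.62 ± 0.11, adjusted p = 0.00144) and at 9 d (1.03 ± 0.11, adjusted p = 5.4e-05). At 9 d its rise was under 2-fold without 0 d replicate 2 (0.96) or 9 d replicate 2 (0.98). Of the partners of cyclin D, CDK6 fell at 3 d from 740.5, 731 and 619 FPKM to 458, 409 and 431 FPKM (−0.68 ± 0.07, adjusted p = 2.72e-05), and without 0 d replicate 3 also at 6 d and 9 d (−0.26 and −0.22). CDK4 fell at 3 d (−0.38 ± 0.09, adjusted p = 0.00457) and 6 d (−0.40 ± 0.09, adjusted p = 0.0054), the latter not after median ratio scaling (−0.22). Of the phosphatases that activate the kinases, CDC25A rose at 3 d (0.74 ± 0.19, adjusted p = 0.00909), and after median ratio scaling at 9 d (0.65). CDC25B fell at 3 d (−0.84 ± 0.21, adjusted p = 0.00607) and 9 d (−0.86 ± 0.21, adjusted p = 0.00857). CDC25C fell at 6 d (−0.59 ± 0.15, adjusted p = 0.0118; not after median ratio scaling, −0.42) and at 9 d (−0.93 ± 0.15, adjusted p = 0.0009), where the fall was over 2-fold without 0 d replicate 1 (−1.02) or 9 d replicate 2 (−1.01).

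Among the 7 CDK inhibitors, 1 rose and 4 fell at 3 d, 1 rose and 1 fell at 6 d, and 0 rose and 3 fell at 9 d. Of all mRNAs, 21.7% rose and 30.5% fell at 3 d, 10.0% rose and 24.8% fell at 6 d, and 9.69% rose and 27.2% fell at 9 d. CDKN1C, the gene of p57, stood at 37.5, 33.1 and 40.7 FPKM at 0 d, 13.1, 14.7 and 15.5 FPKM at 3 d, 4.97, 5.44 and 5.14 FPKM at 6 d and 6.38, 7.59 and 8.10 FPKM at 9 d. Every later library lay far below 0 d, with log2 fold changes of −1.35 ± 0.11 (adjusted p = 3.22e-06) at 3 d, −2.81 ± 0.11 (adjusted p = 5.79e-08) at 6 d and −2.32 ± 0.11 (adjusted p = 2.57e-07) at 9 d. CDKN2B, the gene of p15, stood at 16.6, 15.6 and 17.5 FPKM at 0 d, 4.45, 4.06 and 3.56 FPKM at 3 d, 28.1, 32.1 and 28.1 FPKM at 6 d and 7.01, 5.18 and 6.67 FPKM at 9 d. The log2 fold change was −2.02 ± 0.13 (adjusted p = 4.13e-07) at 3 d, 0.82 ± 0.13 (adjusted p = 0.00059) at 6 d and −1.40 ± 0.13 (adjusted p = 1.85e-05) at 9 d. CDKN2B was thus below its 0 d level at 3 d and 9 d and above it at 6 d, with no overlap between days. After median ratio scaling its rise at 6 d was just over 2-fold (1.00).

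CDKN1B, the gene of p27, was the inhibitor that rose at 3 d, from 7.88, 6.92 and 7.61 FPKM to 13.9, 16.6 and 14.2 FPKM (log2 fold change 0.99 ± 0.10, adjusted p = 1.14e-05). Without 0 d replicate 1 or 3, or 3 d replicate 1 or 3, its rise was just over 2-fold (1.00 to 1.04), as it was after median ratio scaling (1.07), and at 6 d it stood at 6.87, 6.76 and 7.03 FPKM. CDKN1A, the p53 target p21, fell at 3 d from 32.05, 31.5 and 33.8 FPKM to 19.9, 13.8 and 20.4 FPKM (−0.86 ± 0.13, adjusted p = 0.00023) and did not differ from 0 d by the test at 6 d or 9 d (−0.03 and −0.15), except at 9 d without 3 d replicate 2. CDKN2A, the gene of p16, fell at 3 d (−0.69 ± 0.13, adjusted p = 0.00127) and at 9 d (−0.46 ± 0.13, adjusted p = 0.0191). At 9 d it did not pass without 0 d replicate 2 (−0.33) or 9 d replicate 2 (−0.41), nor after median ratio scaling (−0.25). At 6 d it passed as a rise after median ratio scaling (0.52) or without 0 d replicate 2 (0.47). CDKN2C stood at 1.05, 1.46 and 2.73 FPKM at 0 d, 5.39, 4.15 and 4.09 FPKM at 3 d, 0.05, 0.44 and 1.41 FPKM at 6 d and 1.75, 1.17 and 0.94 FPKM at 9 d and passed only at 6 d vs. 3 d (−3.21 ± 0.69, adjusted p = 0.00321). Its 3 d libraries lay above all others, and against 0 d it passed without 6 d replicate 1 or 6 d replicate 3 (1.42 at 3 d in both) and, at 6 d, without 6 d replicate 3 (−2.59). CDKN2D passed in no comparison with 0 d, with 0.64 at 3 d and 0.36 at 9 d, although it passed at 3 d after median ratio scaling (0.72) or without any 1 of the 6 d libraries, and at 9 d without 6 d replicate 1.

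**Figure D5:**
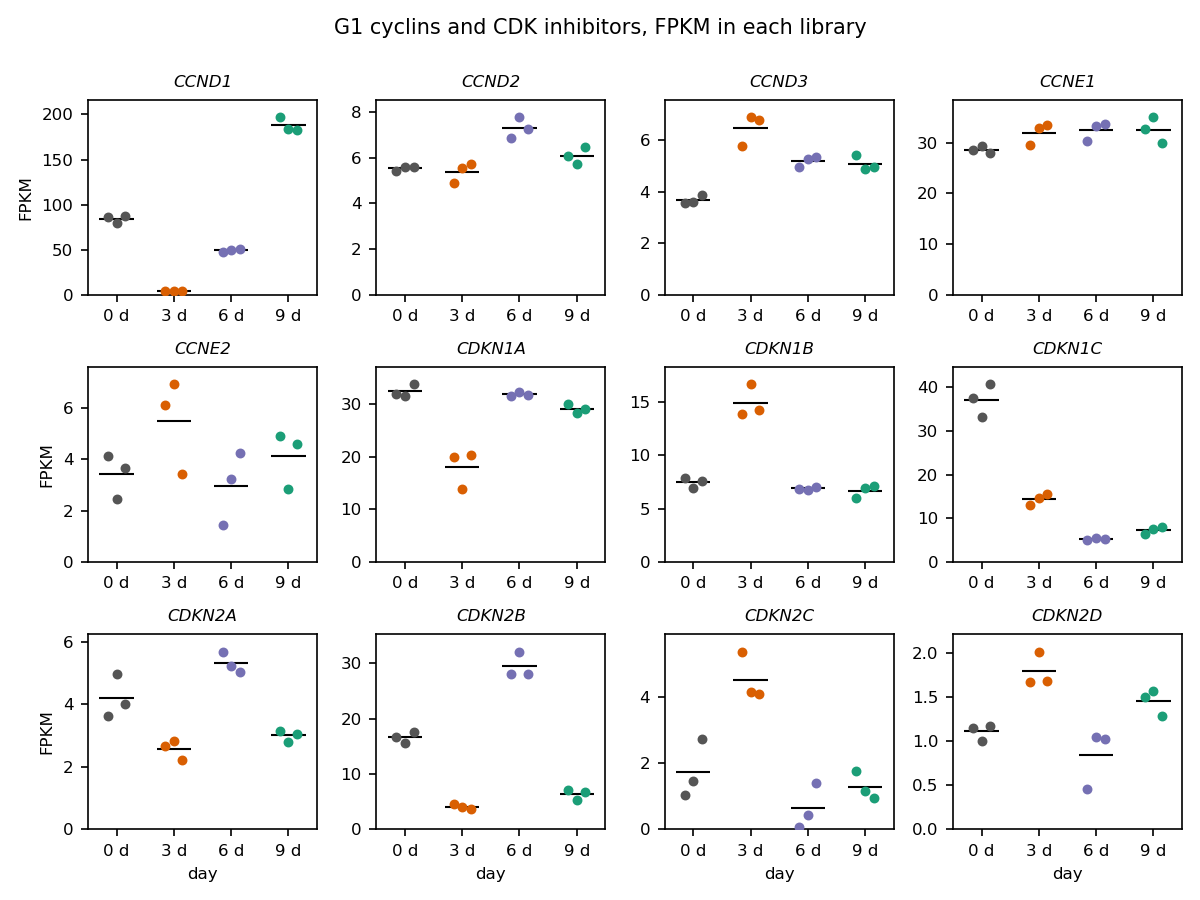
Points are the FPKM of each library and lines the mean of the 3 libraries of a day, with the axis of each panel starting at 0. CCND1 is near 4 FPKM at 3 d and over 180 FPKM at 9 d, CDKN1C is highest at 0 d, CDKN2B is low at 3 d and 9 d, and CDKN1B is highest at 3 d.

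Further genes of the same processes, read as lists, are set beside the 44. Genes without a row of their own enter none of these counts. The counts below stand against 21.7% of all mRNAs that rose and 30.5% that fell at 3 d, 10.0% that rose and 24.8% that fell at 6 d, and 9.69% that rose and 27.2% that fell at 9 d. Of 33 other replication genes tested, 20 rose and 1 fell at 3 d, 3 rose and 3 fell at 6 d, and 12 rose and 2 fell at 9 d, with median log2 fold changes of 0.44, 0.01 and 0.35. POLE, the leading strand polymerase, had the largest called rise at 3 d, from 13.1, 11.7 and 14.3 FPKM to 27.6, 39.7 and 36.8 FPKM (log2 fold change 1.39 ± 0.14, adjusted p = 1.77e-05). CDT1, which works with CDC6 in origin licensing, had the largest at 9 d, from 0.88, 0.78 and 0.90 FPKM to 2.12, 2.13 and 2.13 FPKM (1.23 ± 0.17, adjusted p = 0.0003). These levels are near 1 FPKM, where the fold depends on the constant added to FPKM, as for CDC6. The medians of this list were thus higher at 3 d and 9 d than at 6 d.

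Of 48 other mitosis genes tested, 27 rose and 2 fell at 3 d, 10 rose and 2 fell at 6 d, and 8 rose and 9 fell at 9 d, with medians of 0.54, −0.00 and −0.11. GTSE1 had the largest called rise at 3 d, from 2.27, 2.31 and 2.42 FPKM to 6.09, 6.78 and 6.03 FPKM (log2 fold change 1.39 ± 0.12, adjusted p = 5.11e-06). At 6 d, BORA, an activator of PLK1, rose from 7.10, 8.45 and 9.14 FPKM to 18.8, 23.98 and 20.6 FPKM (1.35 ± 0.12, adjusted p = 1.88e-05) and SPC24, of the NDC80 complex, fell (−1.02 ± 0.17, adjusted p = 0.0009). The fall of SPC24 was under 2-fold after median ratio scaling (−0.86) and without 0 d replicate 2 (−0.94), 6 d replicate 1 (−0.91) or 6 d replicate 3 (−0.99). TROAP fell at 9 d from 3.97, 3.39 and 3.17 FPKM to 2.24, 1.56 and 1.22 FPKM (−1.06 ± 0.19, adjusted p = 0.00146), under 2-fold after median ratio scaling (−0.85) and without 0 d replicate 1 (−0.97) or 9 d replicate 3 (−0.87).

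Of 15 genes of the RB, E2F and DREAM families tested, 3 rose and 2 fell at 3 d, 0 rose and 2 fell at 6 d, and 1 rose and 2 fell at 9 d, all by less than 2-fold. RBL1, the p107 gene, rose at 3 d (0.53 ± 0.08, adjusted p = 0.00033) and 9 d (0.62 ± 0.08, adjusted p = 0.00025), and MYBL2 fell at 6 d (−0.68 ± 0.13, adjusted p = 0.0026) and 9 d (−0.55 ± 0.13, adjusted p = 0.00841; not after median ratio scaling, −0.33). RBL2 fell at 9 d (−0.60, adjusted p = 0.0143), but not after median ratio scaling (−0.39) or without 0 d replicate 1 (−0.52) or 9 d replicate 2 (−0.50). These genes were chosen after their values were seen. RB1 and LIN54 stood only in rows shared with other names and are not counted. By limma the RB1 row fell at 3 d (−0.76, adjusted p = 0.00042), 6 d (−0.62, adjusted p = 0.00296) and 9 d (−0.73, adjusted p = 0.00105). The LIN54 row passed at no day against 0 d. Of 18 subunits of the ubiquitin ligases that act in mitosis and G1 phase, 4 rose (22.2%) and 7 fell (38.9%) at 3 d, 2 rose and 3 fell at 6 d, and 4 fell (22.2%) at 9 d. ANAPC15 had the largest called fall at 3 d (−1.84 ± 0.26, adjusted p = 0.00017). Of 13 p53 target genes, 2 rose and 9 fell at 3 d, 3 rose and 1 fell at 6 d, and 3 rose and 4 fell at 9 d. FAS, a p53 target found only in a row shared with other names, is not among these 13. By limma that row fell at 3 d by a log2 fold change of −4.99 ± 0.37 (adjusted p = 1.57e-06). It went from 53.9, 48.31 and 52.25 FPKM at 0 d to 1.01, 0.99 and 3.45 FPKM, and did not pass at 6 d or 9 d. Among the 13 genes, the sestrin genes SESN1 and SESN2 had the largest called changes at 3 d. SESN1 rose from 22.2, 24.4 and 19.4 FPKM to 152, 139 and 133 FPKM (2.68 ± 0.16, adjusted p = 3.59e-07). SESN2 fell from 7.83, 9.25 and 6.47 FPKM to 1.53, 1.67 and 1.74 FPKM (−2.17 ± 0.20, adjusted p = 9.24e-06). SESN2 was also the called fall at 9 d (−1.69 ± 0.20, adjusted p = 0.00014).

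Circular RNAs made from these genes had few reads. Of 14070 circular RNAs, 22 were assigned to 13 of the 45 genes, with 45 back-spliced reads in total among 95674, and no single one had more than 6 reads over the 12 libraries. ANLN had the most, with 11 reads from 5 circular RNAs, followed by TTK with 8 reads and PRC1 with 5. The 0 d libraries held 22 of the reads (11, 2 and 9), the 3 d libraries 10, the 6 d libraries 4 and the 9 d libraries 9. All circular RNAs had 21816, 24067, 19650 and 30141 reads on these days. With so few reads no difference between days was tested.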

How the data were processed

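The authors trimmed the reads, mapped them with HISAT2 to the bovine genome and deposited FPKM per gene. The authors' deposited circular RNA table gives back-spliced read counts per library, and these were summed over host genes. The submitters' notes name HISAT2 2.0, StringTie 1.3.0 and Bowtie 0.12.2 and a mouse build, mm8, whereas the paper names ARS-UCD1.2. The labels name poly(A) selection and the paper rRNA depletion. The paper tested differential expression with edgeR, which models counts, but only FPKM are available for mRNAs. Therefore log2(FPKM + 0.1) was fitted here with limma 3.58.1 in R 4.3.3 on all 15402 rows with a mean of at least 0.1 FPKM. The fit used trend, 1 coefficient per day and Benjamini-Hochberg adjustment per comparison. Tables and plots used Python 3.11.15, NumPy 2.4.6, pandas 2.3.3 and Matplotlib 3.10.9. The fit was also run on simulated data, and no outcome of that run is used here. The genes and lists were chosen with earlier results of these data known.

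Values in each library are given for MKI67, TOP2A, CDK1, CCNB1, PCNA, MCM2, E2F1, FOXM1, AURKB, BUB1 and CDC20. They are also given for the called genes of a role group with the largest and the smallest change at 3 d vs. 0 d. These were CDC45 and CDC6 for replication and E2F1 for the transcription factors, as no other role group held a called gene. All CDK inhibitors and G1 cyclins are named, and of each other pathway list the called gene with the largest rise and the largest fall against 0 d whose days do not overlap. Other genes given in full were chosen after their values were seen. Added constants of 0.01 and 1, other filters, both scalings, summed rows of a name, a robust variance prior, the replicate number as a block, fits of 6 libraries and fits without each library were tried. The lncRNA and miRNA tables hold none of these genes and were not used.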

Additional observations from a re-analysis of the deposited data

Results flagged for a closer look

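The effect against 0 d differed between days for 5 genes, by the tested contrast between those days and by more than 2-fold. From 3 d to 6 d the log2 fold change was −1.33 for CDC6 (adjusted p = 1.16e-05), −1.12 for CDC45 (adjusted p = 5.24e-07) and −1.40 for E2F1 (adjusted p = 0.00017). All 3 genes were higher at 3 d than at 0 d, and their 6 d libraries overlapped with or lay below those of 0 d. From 6 d to 9 d it was 1.16 for MCM3 (adjusted p = 2.37e-05), 1.25 for MCM4 (adjusted p = 0.00023) and 1.60 for CDC6 (adjusted p = 1.64e-05), with the 9 d libraries of each gene above all its 6 d libraries. With 1 added to FPKM in place of 0.1, MCM4 reached 0.99 and CDC6 −0.59 and 0.75, CDC45 fell just under 2-fold, and none of these changes was called.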

How the results depend on the processing

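Counts below are of the 44 genes, higher then lower. Without the minimum fold, a rule chosen after seeing the data, they were 17 and 2 at 3 d vs. 0 d, 1 and 3 at 6 d vs. 0 d, 8 and 13 at 9 d vs. 0 d, 1 and 22 at 6 d vs. 3 d, and 9 and 12 at 9 d vs. 6 d. With 1 added to FPKM, 1 gene was called higher at 3 d vs. 0 d, 1 at 9 d vs. 0 d and 1 at 9 d vs. 6 d, and 1 lower at 6 d vs. 3 d, because the fold of low genes shrinks. With a mean of at least 1 FPKM, 1 was called higher at 9 d vs. 0 d, CDC6 no longer being tested.

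By the adjusted p alone, 1 gene was lower at 3 d vs. 0 d with median ratio scaling, with FPKM scaled to an equal sum and with only the 6 libraries compared. At 6 d vs. 0 d, 0 were higher by limma with no filter, 0 with the replicate block, 2 with a mean of at least 1 FPKM and 6 with median ratio scaling, which left 0 lower. At 9 d vs. 0 d, 6 were lower with median ratio scaling. At 6 d vs. 3 d, 2 were higher with only the 6 libraries compared and 2 with the replicate block. The cause was not tested. Libraries with the same replicate number had residual correlations from −0.10 to 0.11, over 0.1 in 2 of 18 pairs, so the numbers do not mark pairs. The robust variance prior, summed rows of a name and 0.01 added to FPKM left each of these counts within 1.5 times its value.

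Leaving out 1 library at a time gave 3 to 4 genes called higher at 3 d vs. 0 d, 1 to 2 at 9 d vs. 0 d and 3 to 4 at 9 d vs. 6 d, and 3 to 5 called lower at 6 d vs. 3 d, with 0 in the other directions by limma. By the adjusted p alone, the higher genes numbered 14 to 17 at 3 d vs. 0 d, 0 to 3 at 6 d vs. 0 d, 6 to 9 at 9 d vs. 0 d, 1 to 2 at 6 d vs. 3 d and 7 to 11 at 9 d vs. 6 d. The lower genes numbered 1 to 2, 1 to 4, 10 to 14, 18 to 23 and 8 to 12. The log2 fold change of RRM2 at 6 d vs. 3 d was 0.20 with all libraries, −0.50 without 3 d replicate 1 and 0.59 without 3 d replicate 2. Of the genes past the adjusted p, 13 of 19 passed in all 12 such fits at 3 d vs. 0 d, 1 of 4 at 6 d vs. 0 d, 15 of 21 at 9 d vs. 0 d, 18 of 23 at 6 d vs. 3 d and 14 of 21 at 9 d vs. 6 d. FPKM give no depth, so the precision of genes under 1 FPKM is unknown.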

Other observations

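The total FPKM of the mRNA table lay between 1298928 and 1319454 in the 0 d libraries and between 1221194 and 1269899 in the 3 d libraries. The 6 d libraries held 1292029 to 1320282 and the 9 d libraries 1326429 to 1371794. The 3 d totals were below and the 9 d totals above those of 0 d and 6 d, with no overlap.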
